A study of Mus musculus with 32 samples.

Results

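The neuronal microtubule and neurofilament genes described here are 10 of the 27179 genes in a table of N6-methyladenosine (m6A) pulldown reads from mouse organs. They were taken by symbol and encode 4 microtubule-associated proteins (Map1a, Map1b, Map2 and Mapt), the 3 neurofilament subunits (Nefl, Nefm and Nefh) and 3 motor subunits of axonal transport (Kif5a, Kif5c and Kif1a). Brain, heart, kidney and liver had been either flash frozen or fixed in 10% formalin and embedded in paraffin (FFPE), the form in which pathology archives keep tissue. RNA was sheared for 20 min and pulled down with an antibody to m6A, a methyl mark on adenosines of RNA. In the labels there are 32 samples, 2 runs for each of 16 groups, of which 8 are inputs, and the table gives every organ and preservation a single m6A column, 8 in all. Each combination is therefore 1 library here. The sources used here do not say whether a column holds 1 run or both, nor the strain, sex, age or number of the mice.

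Axons and dendrites hold long bundles of microtubules, polymers of tubulin along which motor proteins carry vesicles, mitochondria and RNA. Microtubule-associated proteins bind and space these tracks, and neurofilaments, the intermediate filaments of neurons, fill the axon and set its width. Kinesins are motors that walk along microtubules, in axons mostly from the cell body towards the terminal. In brain, messenger RNAs for these proteins are made by neurons above all, although several of the proteins also occur in other cells.

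The libraries held between 9603050 gene counts (FFPE brain) and 21523379 (frozen brain), of which 50.4% to 79.7% came from 4 ribosomal RNA genes. Markers of the labelled organ were high in each. The 5 cardiomyocyte markers summed to 34655 CPM in frozen and 40753 CPM in FFPE heart against at most 123 CPM elsewhere. The 5 nephron and 5 hepatocyte markers peaked in kidney and liver. Outside liver, hepatocyte markers still summed to 364 CPM in frozen brain, against 20.6 CPM in FFPE brain. They summed to 344 and 211 CPM in frozen and FFPE kidney, and to 28181 and 23267 CPM in frozen and FFPE liver. The 8 markers of central neurons summed to 1167 and 976 CPM in frozen and FFPE brain, and to between 2.51 and 4.58 CPM in kidney and liver. In heart they were above that range, at 56.0 CPM in frozen and 29.1 CPM in FFPE tissue. All 8 had more than 3 reads in frozen heart, whereas in FFPE heart 142 reads of Slc17a7 and 169 of Camk2a made up most of their 338 reads. Heart values below are read beside these markers.

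RefSeq promoter windows are shown for 3 of the genes, because the genes were all higher in brain and the windows can be read beside that shared pattern. Entries for 5 of the 10 genes were matched (Map1a, Map1b, Map2, Kif5c and Kif1a), as the 250 bases before a transcript start in GRCm38.p6, the assembly of mm10. The windows are chr2:121289352-121289601 on the plus strand for Map1a, chr13:99516603-99516852 on the minus strand for Map1b and chr2:49619036-49619285 on the plus strand for Kif5c. Each is written 5′ to 3′ along the gene, with capitals for GC boxes (GGGCGG or, on the other strand, CCGCCC).
Map1a: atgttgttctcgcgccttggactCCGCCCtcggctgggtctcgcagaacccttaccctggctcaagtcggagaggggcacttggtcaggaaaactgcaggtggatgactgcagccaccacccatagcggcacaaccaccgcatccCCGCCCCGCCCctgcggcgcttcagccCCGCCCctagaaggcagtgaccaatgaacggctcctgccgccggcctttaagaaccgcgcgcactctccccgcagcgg
Map1b: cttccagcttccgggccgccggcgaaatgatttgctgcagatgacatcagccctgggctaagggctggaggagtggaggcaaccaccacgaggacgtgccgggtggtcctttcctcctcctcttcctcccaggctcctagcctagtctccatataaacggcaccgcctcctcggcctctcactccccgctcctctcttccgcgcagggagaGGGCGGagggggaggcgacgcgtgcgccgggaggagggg
Kif5c: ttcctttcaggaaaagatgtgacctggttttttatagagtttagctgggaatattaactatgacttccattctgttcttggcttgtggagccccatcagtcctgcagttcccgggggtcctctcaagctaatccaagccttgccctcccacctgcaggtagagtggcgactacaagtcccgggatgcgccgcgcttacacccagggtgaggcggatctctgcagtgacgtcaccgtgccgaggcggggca
The Map1a window held 4 GC boxes, of which 2 share 1 base, the Map1b window 1 and the Kif5c window 0. The Map2 window, not printed, held 5, and the 2 Kif1a windows held 0. A GC box on either strand was present in 32.7% of 32851 promoters of the same length. The letters TATAAA, searched on both strands, were found in the windows of Map1b and Kif5c and in 12.4% of all promoters. The left part of the site of REST, a repressor of neuronal genes outside neurons, was searched as TTCAGCACC and was in none of the 6 windows and in 0.301% of all promoters. Its right part, searched as GGACAG, was found in the Map2 window and in 18.7% of all promoters. These matches describe letters in a window and not bound sites.

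All 10 genes were higher in brain than the average of heart, kidney and liver, by 7.26 at the median on the log2 scale, against a median of 0.07 over all 14864 genes tested. The test was limma with terms for organ and preservation and a Benjamini-Hochberg adjusted p under 0.05, and with this call 30.2% of all genes tested were higher in brain and 26.4% lower (56.6% either way). Both brain libraries stood above all 6 other libraries for 10 of 10 genes, against 26.6% of the genes tested. In bulk tissue fewer cells of a type and less RNA per cell cannot be told apart, and input was not analysed here, so transcript abundance and methylation are not separated either. The p-values measure how alike frozen and FFPE tissue behaved, not the spread between animals. All 10 genes passed the filter on low values (log2 above 0 in at least 2 libraries). Among them 3 (Nefl, Nefm and Nefh) passed only through the brain libraries. A high brain value was thus a condition of testing these 3, and their part in the counts of 10 is descriptive. The other 7 would have passed without the brain libraries. Levels below are the deposited log2 normalized counts, close to log2 CPM, with frozen tissue named before FFPE tissue, and they are not compared between genes, since exon lengths were not used here.

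**Figure D1:**
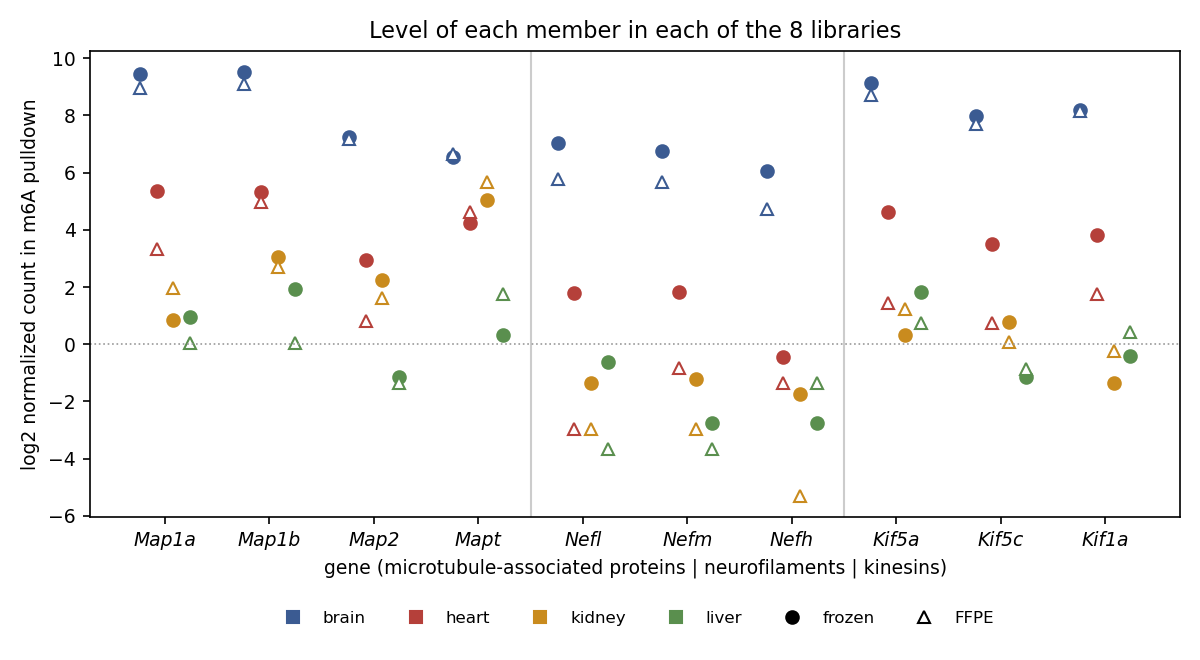
Level of each of the 10 genes in each of the 8 libraries, as deposited log2 normalized counts (vertical axis), with colour for the organ, filled circles for frozen and open triangles for FFPE tissue; each point is 1 library. Both brain points lie above all others for every gene, by the least for Mapt, whose FFPE kidney library reached 5.65.

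Map1a and Map1b encode large, related proteins that are cleaved into a heavy and a light chain and bind along microtubules, Map1b mainly in growing and Map1a in mature axons and dendrites. Map1a (chr2:121289590-121310832) stood at 9.43 and 8.95 for brain, 5.36 and 3.34 for heart, 0.85 and 1.95 for kidney and 0.96 and 0.04 for liver. The brain values rest on 23630 and 10602 reads and the FFPE liver value on 6. Brain was the highest organ and heart the next, while kidney and liver overlapped. The brain level was 7.11 ± 0.47 (SE) above the mean of the other organs (limma adjusted p = 8.3e-06). Map1b (chr13:99421464-99516602) stood at 9.51 and 9.10 for brain, 5.33 and 4.97 for heart, 3.03 and 2.70 for kidney and 1.94 and 0.04 for liver. Its 4 organs did not overlap and ran from brain through heart and kidney to liver, with brain 6.30 ± 0.29 above the rest (adjusted p = 2.09e-06).

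Map2, a microtubule-associated protein of dendrites and cell bodies that is used to stain neurons, spans chr1:66175202-66442583. Its level was 7.24 and 7.16 for brain, 2.94 and 0.82 for heart, 2.24 and 1.61 for kidney and -1.16 and -1.34 for liver, where only 4 and 2 reads were counted. Kidney and heart overlapped, and both brain libraries were within 0.08 of each other. Brain exceeded the other organs by 6.35 ± 0.39 (limma adjusted p = 6.04e-06).

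Mapt encodes tau, the axonal microtubule-associated protein that forms the tangles of Alzheimer's disease, and lies at chr11:104229409-104332090. Its level was 6.54 and 6.65 for brain, 4.24 and 4.62 for heart, 5.04 and 5.65 for kidney and 0.32 and 1.76 for liver. It was the gene of the 10 with the smallest gap between brain and any other library: the FFPE kidney library was 0.89 below the lower brain library, whereas the same gap was 3.59 to 5.18 for the other 9 genes, with frozen heart as the nearest library each time. The 4 organs did not overlap, in the order brain, kidney, heart, liver. Brain exceeded the mean of the others by 2.99 ± 0.24 (limma adjusted p = 2.23e-05), the smallest difference of the 10. As a share of the brain level of the same preservation, kidney Mapt was 35.4% (95% counting interval 32.6% to 38.4%) in frozen and 50.1% (46.4% to 54.1%) in FFPE tissue, from 722 and 981 reads. Central neuron markers summed to only 2.79 and 2.51 CPM in those 2 kidney libraries.

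Nefl, Nefm and Nefh encode the light, medium and heavy subunits that assemble together into neurofilaments. Nefl and Nefm are neighbours, at chr14:68083863-68089095 and chr14:68119545-68125004 with 30450 bases between them, and Nefh lies at chr11:4938754-4948064. Nefl stood at 7.02 and 5.79 for brain, from 4433 and 1188 reads, and at 1.78 and -2.96 for heart, from 44 and 1 reads. In kidney it was -1.37 and -2.96 and in liver -0.63 and -3.66, from at most 8 reads in each of these 4 libraries and 0 in FFPE liver. Both brain libraries were thus far above the rest, while heart overlapped liver and liver overlapped kidney.

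Nefm, the medium subunit, stood at 6.77 and 5.66 for brain, 1.84 and -0.84 for heart, -1.20 and -2.96 for kidney and -2.74 and -3.66 for liver. Brain gave 3732 and 1089 reads of it, heart 46 and 6, kidney 9 and 2, and liver 1 and 0, so that kidney and liver could not be ordered. Nefh, a subunit with a long phosphorylated tail that is added as axons mature, stood at 6.06 and 4.73 for brain, -0.45 and -1.37 for heart, -1.75 and -5.29 for kidney and -2.74 and -1.34 for liver. Its brain values rest on 2287 and 568 reads and all 6 others on 9 reads or fewer. Brain exceeded the other organs by 8.04 ± 0.69 for Nefl, by 7.81 ± 0.51 for Nefm and by 7.55 ± 0.86 for Nefh, given as descriptions, since these 3 passed the filter only through brain. Outside brain they had at most 9 reads in any library, other than 44 (Nefl) and 46 (Nefm) in frozen heart, so the sizes depend on the offset added before the log. With 2 counts added the largest of the 10 differences was 7.34, for Kif1a, so all 3 neurofilament differences fell below 7.34. The median of the 10 was then 7.06.

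The kinesin genes Kif5a and Kif5c encode the neuronal heavy chains of conventional kinesin, which carries vesicles, mitochondria and neurofilaments down the axon, and Kif1a encodes a motor of synaptic vesicle precursors. Kif5a (chr10:127225695-127266348) stood at 9.12 and 8.69 for brain, 4.61 and 1.44 for heart, 0.33 and 1.22 for kidney and 1.82 and 0.73 for liver. Kif5c (chr2:49619286-49774778) stood at 7.97 and 7.68 for brain, 3.50 and 0.75 for heart, 0.78 and 0.07 for kidney and -1.16 and -0.86 for liver. Kif1a (chr1:93015455-93102039) stood at 8.17 and 8.14 for brain, 3.81 and 1.76 for heart, -1.37 and -0.24 for kidney and -0.42 and 0.42 for liver. For each of these 3 motors frozen heart was the highest library outside brain, and the organs below heart overlapped in part: heart, liver and kidney in turn for Kif5a, heart and kidney for Kif5c, and liver and kidney for Kif1a. Brain exceeded the rest by 7.21 ± 0.60 for Kif5a (limma adjusted p = 2.6e-05), by 7.31 ± 0.51 for Kif5c (1.04e-05) and by 7.49 ± 0.54 for Kif1a (1.2e-05).

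Scaling moved the size but not the direction of these differences. With libraries scaled by total gene counts the median over all genes tested went from 0.07 to 1.29, and the 10 genes ranged from 4.21 (Mapt) to 9.26 (Nefl). Relative to its total gene count, the authors' scaled library size was smallest for FFPE liver (0.426) and largest for FFPE brain (2.24). Of the 10 genes, 7 overlap another annotated gene and 3 overlap a protein-coding one (Map1a with Ppip5k1 and Trp53bp1, Nefh with Ap1b1, Kif5a with Dctn2); whether reads were counted by strand was not stated in the sources used.

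The close relatives that many tissues express had smaller brain differences, with a median of 0.78 over 8 relatives against 7.26 over the 10 genes. Kif5b, the conventional kinesin heavy chain of most cells, stood at 7.08 and 6.53 for brain and between 4.95 and 6.28 in the other 6 libraries, with a brain difference of 1.07 ± 0.14 (limma adjusted p = 0.000229). Map4, the microtubule-associated protein of non-neuronal cells, stood at 6.54 and 6.64 for brain and 6.64 and 6.73 for heart, and its brain difference was 1.46 ± 0.16 (0.000106). Kif1b, a relative of Kif1a that carries mitochondria and synaptic vesicle precursors, differed by 1.74 ± 0.18 (8.16e-05), and Map1s, the short relative of Map1a and Map1b, by 1.49 ± 0.39 (0.0101), which missed the threshold without frozen (0.129) or FFPE brain (0.0591). Kif1c, a kinesin of many cell types, was the only one of 8 such relatives that was lower in brain, by -1.70 ± 0.18 (9.24e-05), and its difference was -0.48 (adjusted p = 0.265) with scaling by total counts. Of these 8 relatives 4 were higher in brain, where 30.2% of all genes tested were higher, and 3 passed in neither direction. With scaling by total counts 7 of 8 were higher, while the genes called higher over all 14864 went from 4491 to 8234.

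**Figure D2:**
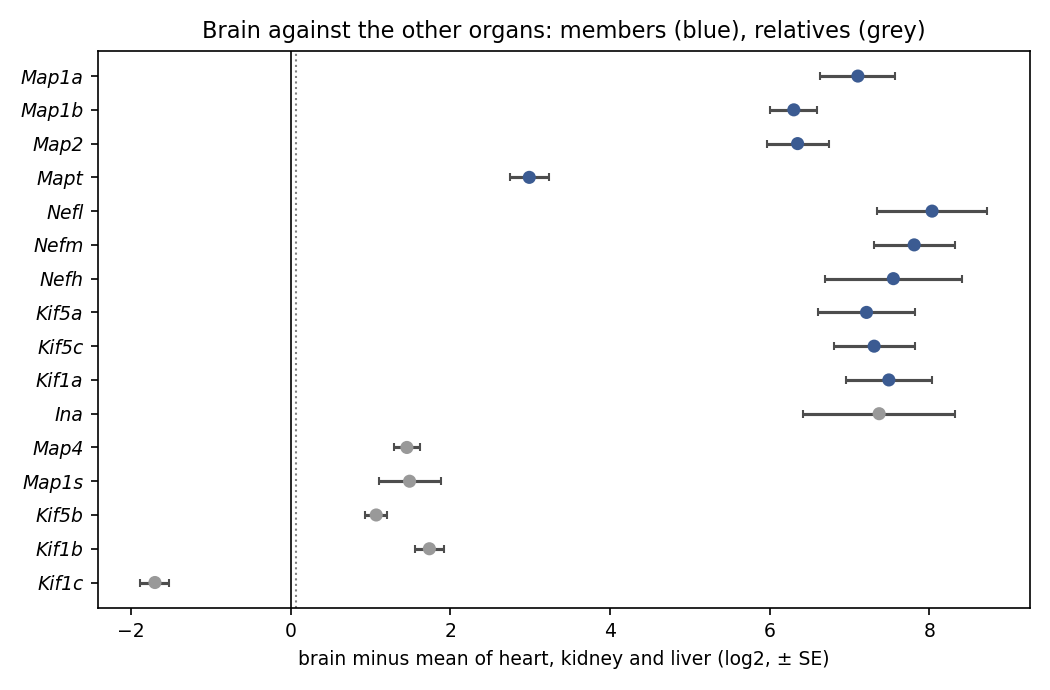
Difference between brain and the mean of heart, kidney and liver for the 10 genes (blue) and 6 other genes (grey: Ina, Map4, Map1s, Kif5b, Kif1b and Kif1c), on the log2 scale with SE from limma over 8 libraries; the solid line is no difference and the dotted line the median over all genes tested, 0.07. The 10 genes lie between 2.99 (Mapt) and 8.04 (Nefl), and of the grey genes only Ina, at 7.37, lies among them.

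Other genes of the neuronal cytoskeleton were mostly higher in brain as well, against 30.2% of all genes tested. The lists of tubulins, microtubule regulators and transport partners each hold a gene that passed the filter on low values only through brain. Tubb3 and Dync1i1 are examples, so the counts over these lists are descriptive. Of 6 tubulin genes that neurons use, 5 were higher in brain and the median difference was 4.13; Tubb4a, a tubulin of neurons and oligodendrocytes, differed by 8.08, Tuba1a by 4.64 and Tubb2a by 1.89, while Tuba4a, at 0.92, was not called (limma adjusted p = 0.0713) except without FFPE heart (1.24, 0.00249), FFPE brain (1.67, 0.0221) or both heart libraries (1.19, 0.00278), with voom or with scaling by total counts or outside the ribosomal genes. Of 16 regulators of microtubules 15 were higher, with a median of 4.74, among them Tppp, a microtubule-bundling protein, by 4.03 and Dpysl2, a tubulin-binding protein of growing axons, by 3.71. The regulator that was not called was Camsap3, a protein that binds microtubule minus ends. Of 17 partners of transport 16 were higher, with a median of 2.03, including Dync1h1, the heavy chain of cytoplasmic dynein, by 0.76 and Dctn1, the largest subunit of its cofactor dynactin, by 1.48. The adaptor Trak1 was not called, at -0.15, but was called higher with total scaling (1.07, limma adjusted p = 0.0125). Its relative Trak2, at 0.62, was not called with centring on library medians (0.17), no trend in the variance (0.113), or without frozen brain (0.143), FFPE brain (0.141) or FFPE kidney (0.0658).

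Intermediate filament genes outside the neurofilament triplet were divided. Ina, which encodes the neuronal filament protein alpha-internexin, stood at 5.18 and 4.57 for brain and at -0.31 or lower elsewhere, a difference of 7.37 ± 0.95, and it too passed the filter only through brain. Gfap, the astrocyte filament, and Synm were higher in brain too. Gfap, with at most 15 reads in any library outside brain, also passed the filter only through brain. That made 3 of the 9 tested genes, with Ina and Gfap as descriptions, where 30.2% of all genes tested were higher. The other 6, Vim, Des, Nes, Lmna, Krt8 and Krt18, were lower, where 26.4% of all were. With scaling by total counts 3 were lower (Des, Krt8 and Krt18), while the genes called lower over all went from 3928 to 1558. With scaling outside the ribosomal genes, or without the heart libraries, 4 were lower. Vim and Nes also missed the threshold without frozen brain (0.166 and 0.13), and Vim without FFPE brain (0.134), FFPE heart (0.0646) or FFPE kidney (0.0676). Prph, the filament of peripheral neurons, had 61 and 11 reads in brain and at most 2 in any other library, and was not tested.

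By the mean of its 2 libraries, heart was the organ next to brain for 8 of the 10 genes. For Nefl, Nefh, Kif5a and Kif5c among them, heart overlapped the organ below it. Heart was compared with the mean of kidney and liver. For Mapt and Map2 the kidney mean was above the heart mean, 5.35 against 4.43 and 1.93 against 1.88, and liver was lowest. Of the 10 genes 8 were higher in heart and 0 lower, where 19% of all genes tested were higher and 20.1% lower (39.1% either way). The differences were 3.40 ± 0.50 for Map1a (limma adjusted p = 0.000851), 3.23 ± 0.31 for Map1b (8.9e-05), 3.19 ± 0.57 for Kif1a (0.0024) and 3.14 ± 0.54 for Nefm (0.00199). Kif5c, at 2.41, Kif5a, at 1.997, Map2, at 1.54, and Mapt, at 1.24, also passed, and Nefl, at 1.57 (adjusted p = 0.127), and Nefh, at 1.87 (0.14), did not. Mapt was not called with total scaling (0.0555), nor Map2 and Kif5a with no trend in the variance (0.0675 and 0.129), whereas Nefl was called with quantile normalization (2.25, 0.047) and voom (2.38, 0.0386). For fits with 1 library left out, sizes are given here without p-values, and only missed thresholds are named. Without the frozen heart library, heart is 1 library. Map1b was then at 3.49, Map1a at 2.44, Nefm at 2.43, Nefh at 1.99 and Kif1a at 1.84. Kif5c was at 1.15, Mapt at 1.06, Map2 at 0.63, Kif5a at 0.52 and Nefl at 0.18. Mapt, Kif5c, Map2 and Kif5a missed the threshold without frozen heart. Map2 also missed it without frozen kidney, and Kif5a without either brain library, frozen kidney or either liver library. Without the FFPE heart library the differences ran from 1.41 (Mapt) to 4.54 (Kif1a). Nefh was at 1.75 in that fit, at 2.68 without frozen kidney and at 2.70 without FFPE liver.

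Set against brain of the same preservation, the frozen heart level of 9 genes was between 1.04% and 5.94%. It was 5.94% (95% counting interval 5.44% to 6.47%) for Map1a, 5.51% (5.04% to 6.01%) for Map1b, 5.04% for Map2, 4.86% for Kif1a, 4.50% for Kif5c and 4.38% for Kif5a. The neurofilament genes were at 3.25% (Nefm), 2.62% (Nefl) and 1.04% (Nefh, 0.474% to 1.97%), and Mapt was above all of them, at 20.3% (17.7% to 23.1%). The 8 central neuron markers, from Snap25 to the glutamate decarboxylase gene Gad2, ranged from 2.53% to 9.68% in the same library, with a median of 5.63%, and 5 oligodendrocyte markers from 2.36% to 4.68%. Markers of peripheral neurons summed to 1.39 CPM there, with Th, the enzyme of catecholamine synthesis, at 0 and 2 of 6 above 3 reads. Schwann cell markers summed to 8.02 CPM in frozen and 8.60 CPM in FFPE heart. The part of these cell types in the heart levels was not tested.

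**Figure D3:**
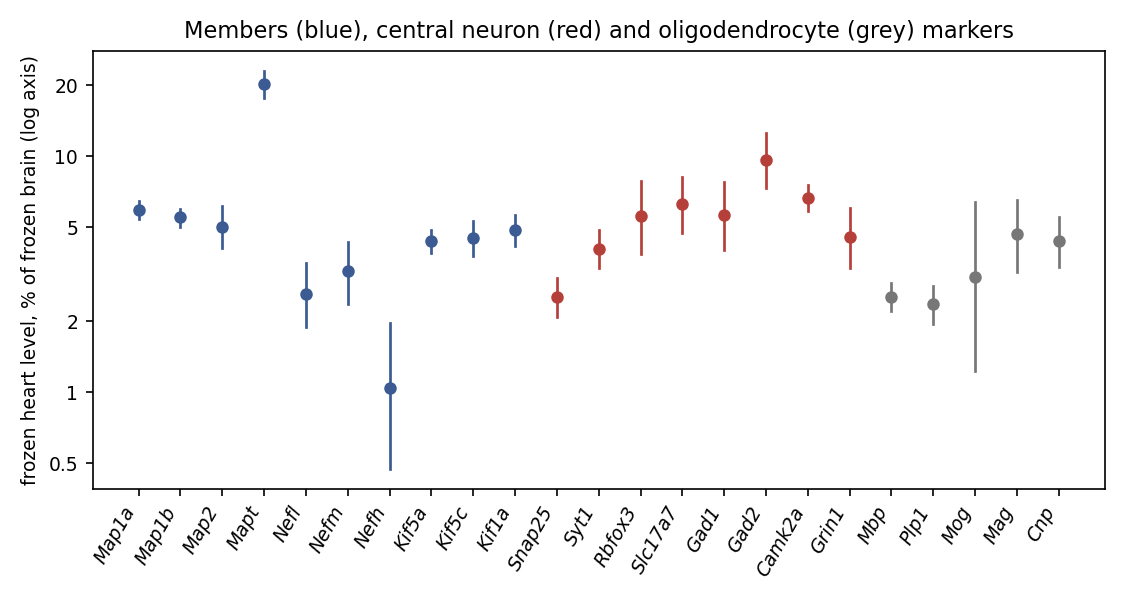
Level in frozen heart as a percentage of that in frozen brain (log axis), for the 10 genes (blue), 8 central neuron markers (red) and 5 oligodendrocyte markers (grey), with 95% counting intervals and 1 library per organ. Most genes lie between 2% and 10%, with Mapt at 20.3% above them and Nefh at 1.04% below.

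In FFPE heart the genes separated. Map1b, at 5.72% of FFPE brain, and Mapt, at 24.4% (21.5% to 27.6%), were close to the shares they had in frozen heart. Map1a was at 2.04%, Map2 at 1.20%, Kif1a at 1.19%, Nefm at 1.02%, Kif5c at 0.796% and Kif5a at 0.644%. Nefh rested on 4 reads, and Nefl was at 0.155% from 1 read. The neuron markers other than Slc17a7 and Camk2a were at 0.534% or less in that library.

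FFPE tissue was next compared with frozen tissue across the 4 organs. Of the 10 genes 0 passed the test (limma, adjusted p under 0.05), against 0.00673% of all genes tested higher in FFPE tissue and 0% lower; 4 of the 10 and 2769 of all genes had an unadjusted p under 0.05. Differences were -2.65 ± 0.60 for Nefl (adjusted p = 0.105), -1.62 ± 0.44 for Nefm (0.147) and -1.10 ± 0.74 for Nefh (0.447). The microtubule-associated proteins were at -0.75 for Map1b, -0.76 for Map2 and -0.58 for Map1a, and the kinesins at -0.95 for Kif5a, -0.86 for Kif5c and -0.03 for Kif1a. Mapt alone was positive, at 0.63 ± 0.21 (0.183). With the authors' scaling Mapt was higher in FFPE tissue in 4 of 4 organs. Its smallest difference was 0.11, for brain, and its largest 1.45, for liver, from only 21 reads against 12. The kidney value depends on the scaling, with 981 FFPE reads against 722 frozen and total gene counts of 18481063 against 13417818. How many of all genes tested were higher in every organ was not counted. With voom precision weights, which give values from few reads less weight, the 3 neurofilament genes were called lower, Nefl at -1.39 (adjusted p = 0.0313), Nefm at -1.21 (0.0216) and Nefh at -1.31 (0.0233), and 266 genes in all were called higher and 152 lower. With total scaling Nefl alone was called (-2.76, 0.0015).

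Within brain, where every gene had at least 568 reads in each library, the neurofilament genes stood apart from the other 7. FFPE minus frozen was -1.23 (95% counting interval -1.32 to -1.14) for Nefl, -1.10 (-1.20 to -1.01) for Nefm and -1.34 (-1.47 to -1.20) for Nefh, against a median of -0.08 over all genes tested. Of all genes tested, 6.60% were at or below the value of Nefl, 7.84% at or below that of Nefm and 5.70% at or below that of Nefh. It was -0.48 for Map1a, -0.42 for Map1b, -0.43 for Kif5a and -0.29 for Kif5c. Map2, at -0.08, and Kif1a, at -0.03, were near 0, and Mapt was 0.11 (0.03 to 0.19). These are differences between 1 library and another, and the intervals cover counting error only. Under total scaling all 3 neurofilament differences kept their sign, at -0.73 for Nefl, -0.61 for Nefm and -0.84 for Nefh, while the other 7 were positive, from 0.0081 (Map1a) to 0.60 (Mapt).

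**Figure D4:**
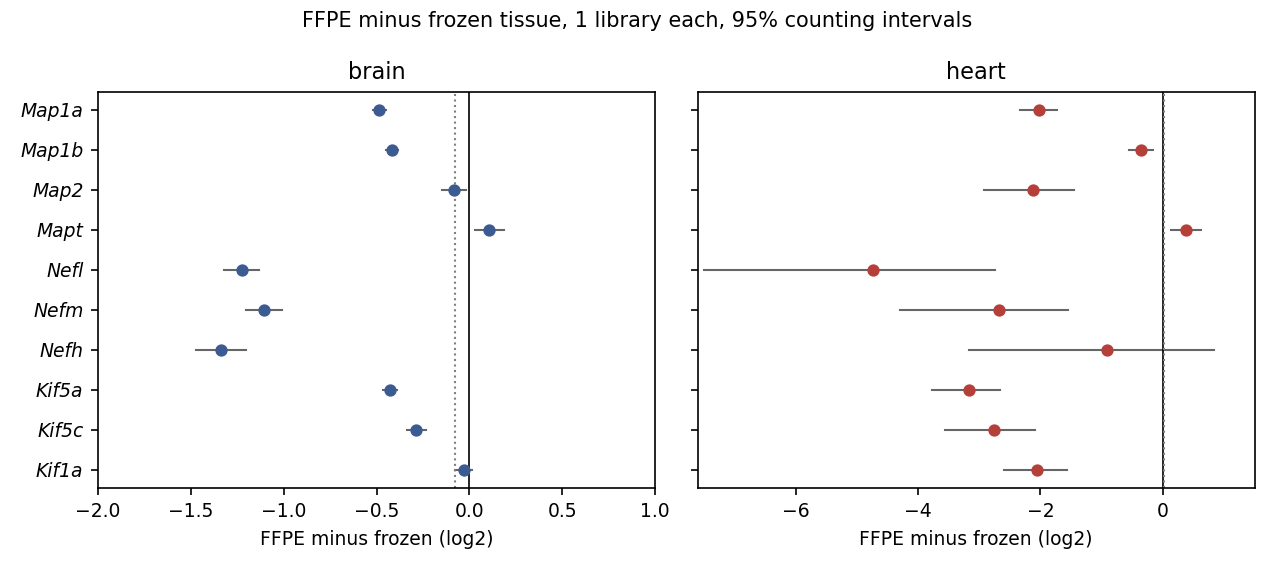
FFPE minus frozen level of the 10 genes in brain (left) and heart (right), on the log2 scale with 95% counting intervals, 1 library against 1; the dotted lines mark the median over all genes tested. In brain the neurofilament genes lie between -1.34 and -1.10 and the others between -0.48 and 0.11. In heart the values run from -4.73 for Nefl, on 1 read against 44, to 0.37 for Mapt, with Kif5a at -3.17.

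In heart several preservation differences were larger than in brain, as values from 1 library each. FFPE minus frozen was -3.17 for Kif5a, -2.75 for Kif5c, -2.12 for Map2, -2.05 for Kif1a and -2.02 for Map1a, but -0.36 for Map1b and 0.37 for Mapt. The neurofilament genes rest on few reads there: Nefl was at -4.73 from 1 read against 44, Nefm at -2.68 from 6 against 46, and Nefh at -0.92 from 4 against 9. In kidney Map1a was at 1.10, Kif5a at 0.89 and Mapt at 0.61, against -0.63 for Map2 and -0.34 for Map1b. Whether the preservation difference in brain departed from that in the other organs was tested with a further term: 0 of 10 genes passed and the adjusted p was 0.9998 for each, with 0 genes called over all (558 at an unadjusted p under 0.05, and 2 called lower with voom). That fit leaves 2 residual degrees of freedom, and for Nefl it gave 1.90 ± 1.34.

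The split of reads among the 3 families does not depend on how libraries were scaled. Neurofilament genes took 9.96% (95% Wilson interval 9.78% to 10.1%) of the reads of the 10 genes in frozen brain and 5.71% (5.51% to 5.92%) in FFPE brain, from 104969 and 49814 reads. Microtubule-associated protein genes took 54.3% and 55.4%, and kinesin genes 35.7% and 38.9%. Within the triplet the split was similar: Nefl took 42.4% in frozen and 41.8% in FFPE brain, Nefm 35.7% and 38.3%, and Nefh 21.9% and 20.0%. For each of the 3 subunits the intervals of the 2 preservations overlapped, though barely for Nefm (34.8% to 36.6% in frozen and 36.5% to 40.1% in FFPE brain). Such overlap does not measure the difference between the shares, which was not tested.

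**Figure D5:**
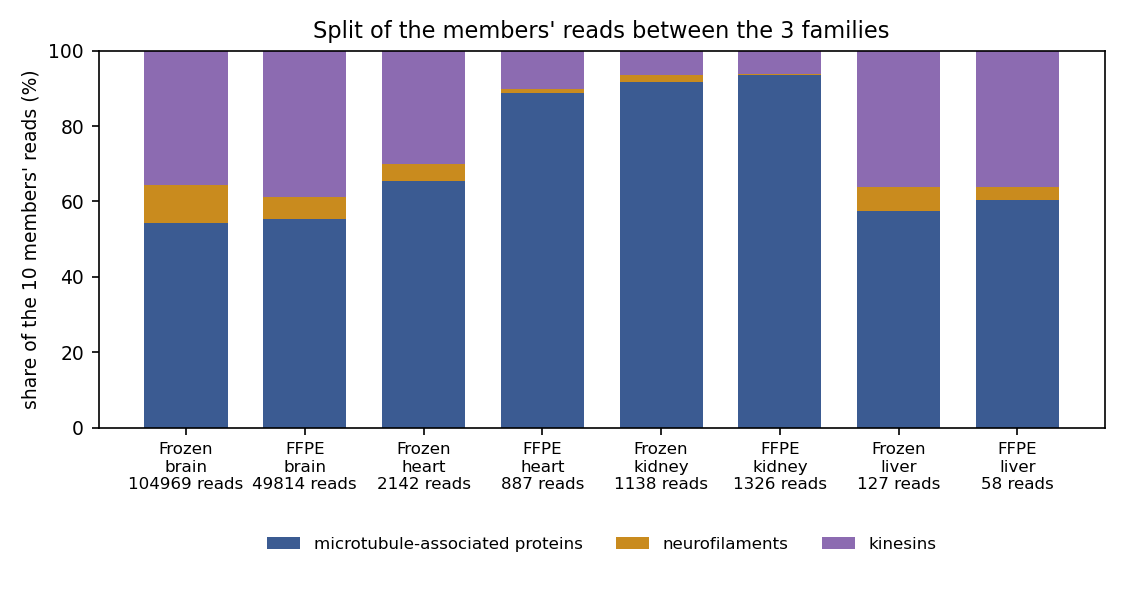
Share of the reads of the 10 genes that fell to microtubule-associated protein, neurofilament and kinesin genes in each library, in percent, with the number of reads under each bar. Kidney and FFPE heart are made up almost wholly of microtubule-associated protein reads (88.7% to 93.6%), and the neurofilament share is 9.96% in frozen and 5.71% in FFPE brain.

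In heart and kidney the balance was different. Microtubule-associated protein genes took 65.3% of the reads in frozen heart, 88.7% in FFPE heart, 91.7% in frozen kidney and 93.6% in FFPE kidney. In kidney most of this was Mapt, which by itself took 63.4% (60.6% to 66.2%) of the reads in frozen and 74.0% (71.6% to 76.3%) in FFPE tissue, against 3.04% in frozen brain. The neurofilament share in frozen heart was 4.62% (3.81% to 5.60%), below that in frozen brain. Liver held 127 and 58 reads of the 10 genes in all. In frozen liver the shares were 57.5% (48.8% to 65.7%) for microtubule-associated protein, 6.30% (3.23% to 11.9%) for neurofilament and 36.2% (28.4% to 44.9%) for kinesin genes. Each of these family intervals contains the share in frozen brain. Single genes differed: Mapt took 9.45% (5.49% to 15.8%) in frozen liver and 36.2% (25.1% to 49.1%) in FFPE liver. In frozen liver the intervals of Mapt, Map1a, Kif5a and Kif5c left out the frozen brain share, and those of Map1b, Map2, Nefl, Nefm, Nefh and Kif1a contained it.

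Among 4415 genes with a mean log2 of at least 3, the pattern over 8 libraries nearest to the mean of the 10 was that of Mbp, a myelin protein of oligodendrocytes. Its root mean square distance from that mean was 0.466 after each gene was centred, against a median of 3.23 over the genes searched. Others near it were Atp2b2, a calcium pump, at 0.679, Syt11 at 0.939 and the noncoding RNA Meg3 at 1.04. Ranked by Pearson correlation in place of distance, Mbp was still among the nearest 5, and Atp2b2, Syt11 and Meg3 were not. Among the 10 genes themselves the distance ran from 0.372 for Kif5c to 2.24 for Mapt.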

How the data were processed

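HISAT2, featureCounts, limma and the mm10 build are named, without versions, order, settings or strand, per the submitters' processing notes. The values the authors deposited are log2 normalized counts for 27179 genes and 8 libraries. Judged from the numbers, each equals the log2 CPM of (count + 0.5) over (scaled library size + 1), and 100.0% of them turned back into whole counts within a tolerance of 0.001 (relative above 10000 counts). Only the table's name ties its columns to the m6A antibody. Another table's 8 columns could be assigned to no sample and stayed unused.

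The 14864 genes with log2 above 0 in at least 2 libraries were fitted with limma 3.58.1 in R 4.3.3 (organ and preservation terms, eBayes with a trend, 3 residual degrees of freedom, Benjamini-Hochberg adjustment over all genes tested, threshold 0.05). With 1 library per organ and preservation, frozen and FFPE tissue serve as the 2 observations of an organ. Within 1 organ, differences carry exact 95% counting intervals and no test; pulled-down reads are not independent molecules, so intervals cover counting error only. The fit was tested on simulated data. Percentages, shares and figures were made with Python 3.11.15 (pandas 2.3.3, scipy 1.17.1, numpy 2.4.6, matplotlib 3.10.9).

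The genes and lists were chosen with earlier results of these data known. Named are the 10 genes, 6 close relatives (Map4, Map1s, Kif5b, Kif1b, Ina and Prph), up to 4 of the most abundant members of each related list and the 5 genes nearest in pattern among those with a mean log2 of at least 3, of which 1 is not reported here; markers, Camsap3 and the genes that a list's count leaves out were named after their values were seen. Coordinates come from RefSeq annotation of GRCm38.p6. Alternatives were quantile normalization, centring on medians, scaling by total counts or by counts outside 4 ribosomal genes, no filter, a stricter filter (4 libraries), adding 2 counts, voom weights, no trend and leaving out libraries. An order of the genes by level per exon length was planned and not made, because exon lengths were not used here.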

Additional observations from a re-analysis of the deposited data

Results flagged for a closer look

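Map1a and Kif5a stood out because their preservation difference pointed one way in some organs and the other way in kidney. With the authors' scaling their counting intervals were on opposite sides of 0. FFPE minus frozen Map1a was -0.48 in brain and -2.02 in heart but 1.10 in kidney, where it rests on 75 reads against 39. FFPE minus frozen Kif5a was -0.43 in brain, -3.17 in heart and -1.09 in liver but 0.89 in kidney, from 45 reads against 27. These signs depend on the scaling. With scaling by total gene counts the brain values were 0.0081 for Map1a and 0.065 for Kif5a. In kidney the FFPE library had the larger total gene count, 18481063 against 13417818. Its scaled size was the smaller, 19499763 against 21900915. Each value compares 1 library with 1 other, and the difference between these organs was not tested.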

How the results depend on the processing

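The brain differences of the 7 genes that pass the filter without brain kept their direction under every alternative. These genes also kept their side of the threshold with all 8 libraries and without both heart libraries. With 1 library left out the lowest value was 2.64, for Mapt without frozen brain. Nefl, Nefm and Nefh kept their direction wherever they were tested, given as a description, since they passed the filter only through brain. The stricter filter left 7 of the 10 tested, without the neurofilament genes. Over all genes, the number higher in brain went from 4491 to 8234 with total scaling and ran from 2971 to 4712 with 1 library left out; the number lower went from 3928 to 1558 with total scaling and 8528 with no filter and ran from 2593 to 4009, the lowest counts being without FFPE brain. Vim turned from -0.84 to 0.38 with total scaling and to 0.25 without both heart libraries, and Trak1 from -0.15 to 1.07 with total scaling, 0.33 with scaling outside the ribosomal genes and 0.10 without both heart libraries. The cause was not tested.

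For FFPE against frozen, genes called higher numbered 1, and 2 with quantile normalization, 31 with total scaling, 11 with scaling outside the ribosomal genes, 7 with no filter, 70 with 2 counts added, 266 with voom, 0 with no trend, 4 without both heart libraries and 1 to 5 with 1 library left out. Genes called lower numbered 0, and 178, 32, 3, 35 and 152 with total scaling, scaling outside the ribosomal genes, no filter, 2 counts added and voom; of the 10 genes 1 was lower with total scaling and 3 with voom. Kif1a turned from -0.03 to 0.16 with quantile normalization and to 0.65 without both heart libraries, and ran from -0.41 to 0.65 with 1 library left out (0.65 without frozen or FFPE heart). Within brain the median of the 10 was -0.42, -0.35 with scaling outside the ribosomal genes and 0.0706 with total scaling, where Map1a turned to 0.0081, Map1b to 0.076, Map2 to 0.41, Kif5a to 0.065 and Kif5c to 0.21.

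For heart against kidney and liver, 4 to 9 of the 10 genes were called with 1 library left out (4 without frozen heart), and over all genes 1664 to 3026 were higher and 1978 to 2971 lower, the lowest counts being without FFPE heart; with total scaling 1766 were higher. For the brain-specific preservation term, 4 genes were higher with total scaling and 2 lower with voom; it could not be fitted without a brain library. No paired analysis was possible because the columns carry no run number. The order per exon length was not run. Depth limits the neurofilament genes most, with at most 46 reads in any library outside brain.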

Other observations

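A few pairs of related transport and cytoskeleton genes, chosen after their values were seen, were split between organs in the way the 10 genes and their relatives were. Dync1i1, an intermediate chain of dynein, was 6.07 ± 0.55 higher in brain than the average of heart, kidney and liver on the log2 scale, from 4.56 in frozen and 4.22 in FFPE brain to at most 0.06 elsewhere. Dync1i2, the intermediate chain of most cells, stood at 4.88 and 4.73 in brain and between 4.04 and 4.29 in the other 6 libraries, a difference of 0.65 ± 0.15. Kif3c, a kinesin-2 motor subunit, differed by 4.31 ± 0.24, and its relative Kif3b by 1.23 ± 0.18. Tubb3, the tubulin used to stain neurons, differed by 8.05 ± 0.69, with 1860 and 621 reads in brain and 32 and 7 in heart. Differences are given with their SE and no test, and Dync1i1 and Tubb3 passed the filter on low values only through brain.

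Slc17a7 and Camk2a, markers of excitatory neurons, did not follow the other neuron markers in FFPE heart. Slc17a7 stood at 2.15 in frozen and 3.61 in FFPE heart, from 57 and 142 reads, and Camk2a at 4.30 and 3.86, from 255 and 169 reads. In FFPE heart Slc17a7 was at 15.1% (12.6% to 17.9%) and Camk2a at 5.81% (4.96% to 6.78%) of FFPE brain, while Syt1 was at 0.272%, Snap25 at 0.534% and Grin1 at 0.115%.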
